A study of Homo sapiens with 6 samples.

Results

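*NOTCH1*, *NOTCH2*, *NOTCH3*, *JAG1*, *JAG2*, *DLL1*, *DLL3*, *HES1*, *HES4* and *HEY1* are 3 receptors, 4 ligands and 3 transcriptional targets of the Notch pathway. They were found by their gene symbols in the merged count table of the series, and 10 of 10 were present and were among the 23304 genes tested. *NOTCH1* and *HES4* were higher in the sh-*RREB1*-labelled group and passed the test, and neither passed once library trends on GC content and transcript length had been removed. *DLL3* was called lower only after that removal. *NOTCH2*, *JAG1* and *HES1* did not pass the test in either fit.

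The 6 libraries were made for RNA-seq from HEK293T, a derivative of the human embryonic kidney line HEK293 that carries the SV40 large T antigen. The sample labels name HEK293T, and the series design names HEK293. Cells in 3 libraries expressed a control hairpin against no specific sequence (sh-control) and cells in 3 libraries a hairpin against *RREB1* (sh-*RREB1*), a zinc finger transcription factor, both delivered by pLKO.1 lentivirus into lines kept under drug selection and grown in DMEM with serum. The comparison asks which transcripts differ between cells expressing one hairpin and cells expressing the other. Nothing states whether the 3 libraries of a group came from separate infections or cultures, so p-values measure only the spread between these libraries.

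Notch receptors are single-pass membrane proteins that bind Jagged and Delta-like ligands on neighbouring cells. Ligand binding leads to cleavage of the receptor by an ADAM protease and then by gamma-secretase, and the freed intracellular domain enters the nucleus, where it joins the DNA-binding protein RBPJ and a Mastermind coactivator. Genes of the HES and HEY families, which encode repressors of the basic helix-loop-helix class, are the best known targets. In the developing kidney, the tissue from which HEK293 was derived, Notch signalling takes part in patterning the nephron.

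Values are reads on the strand of the gene, given as counts per 1000000 reads (CPM) with TMM scaling. Gene coordinates are those of Gencode version 44 on GRCh38. A gene is named as called where its adjusted p was under 0.01 and its log2 fold change lay beyond 1 in either direction. Between 23362197 and 33044061 reads were counted on genes in sh-control and between 12257054 and 26145878 in the sh-*RREB1*-labelled libraries. Of the reads of sh-*RREB1* replicate 3, 52.1% aligned at several positions, against 3.66% to 7.63% in the other 5 libraries. *RREB1* itself was at 25.2 to 27.2 CPM in sh-control, against 23.2 to 24.6 CPM in the sh-*RREB1*-labelled libraries, a log2 fold change of -0.14 ± 0.13 (SE, n = 3 per group) with an adjusted p of 0.486 (edgeR quasi-likelihood test, Benjamini-Hochberg over all genes), and of -0.36 ± 0.12 (0.0534) with the trend on GC content and length removed. The labels were therefore not checked by a clear loss of the targeted transcript, and every direction below rests on the labels. For the marker genes that follow, thresholds and sums are in CPM of the reads on genes, without TMM scaling. Of 9 genes HEK293 cells are known to express, 7 exceeded 1 CPM in every library, with *NEFH* and *PAX2* below. Their summed level was 475 to 518 CPM in sh-control, against 805 to 891 CPM in the sh-*RREB1*-labelled libraries, and its part in the results was not tested. Most of the sum was *VIM*, at 330 to 360 CPM with TMM scaling in sh-control, against 530 to 616 CPM in the other group. Of these genes only *NEFH* had a negative log2 fold change, -1.05. Of 10 markers of other cell types, 0 exceeded 1 CPM in every library and 2, *CD3E* and *MLANA*, had no read. Their summed level was 1.97 to 3.21 CPM in sh-control, against 1.79 to 4.67 CPM in the sh-*RREB1*-labelled libraries. In bulk RNA, fewer cells expressing a gene and less of its RNA per cell cannot be told apart.

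RBPJ is known to bind the core TGGGAA. It was searched for on both strands, as TGGGAA or TTCCCA, in 300-base windows around RefSeq start sites (GRCh38), of which 7 of the 10 genes had one. Of all 35116 such windows, 24.03% held the core. The longer GTGGGAA, which contains it, was held by 6.25%. Among the 7 genes, the core was found in the windows of *HES1* and *HES4*, which also held the longer form. The upstream parts of those windows are shown because *HES1* and *HES4* are both known Notch targets and differ in their values below, and that of *NOTCH1* because it is the other gene called. Letters in capitals are the core. Most of the *HES4* core lies within its longest Gencode transcript and is upstream only of the RefSeq start. *HES1* is shown at chr3:194135898-194136147 (plus strand), *HES4* at chr1:1000149-1000347 (minus strand, without the bases next to the RefSeq start, which lie within the longest Gencode transcript, as do the last bases shown) and *NOTCH1* at chr9:136546049-136546298 (minus strand).
HES1: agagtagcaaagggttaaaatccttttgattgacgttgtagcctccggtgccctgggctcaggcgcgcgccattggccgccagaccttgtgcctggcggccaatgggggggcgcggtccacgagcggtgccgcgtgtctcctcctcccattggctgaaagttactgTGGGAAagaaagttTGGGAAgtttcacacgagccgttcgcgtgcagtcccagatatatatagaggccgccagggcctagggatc
HES4: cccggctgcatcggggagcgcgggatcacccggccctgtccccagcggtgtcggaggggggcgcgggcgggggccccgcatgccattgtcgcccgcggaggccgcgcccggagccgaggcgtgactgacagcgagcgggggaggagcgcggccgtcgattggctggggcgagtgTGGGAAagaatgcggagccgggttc
NOTCH1: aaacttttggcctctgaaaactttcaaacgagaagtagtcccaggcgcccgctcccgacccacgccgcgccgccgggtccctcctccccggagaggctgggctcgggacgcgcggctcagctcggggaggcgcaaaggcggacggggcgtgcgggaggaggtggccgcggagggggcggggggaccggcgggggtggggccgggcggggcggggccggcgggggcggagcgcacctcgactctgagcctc
The *HES1* stretch holds 2 copies of the core on one strand, separated by a few bases, the *HES4* stretch holds 1, and the *NOTCH1* stretch holds 0. GC content of the whole window was 59% for *HES1*, 75.7% for *HES4* and 77% for *NOTCH1*, against a median of 58.7% over all windows. A match is a description of these letters and not evidence of binding.

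Of the receptors listed above, *NOTCH1* was the lowest and differed most between the groups. *NOTCH1* (ENSG00000148400, chr9:136494433-136546048, minus strand) encodes the receptor best known from T cell development. Its level was 0.609, 0.662 and 0.623 CPM in sh-control, against 2.14, 2.10 and 1.74 CPM in the sh-*RREB1*-labelled libraries. The groups did not overlap, and the lowest library labelled sh-*RREB1* lay well above the highest control. The read numbers were small, at 14, 18 and 20 against 53, 55 and 22. *NOTCH1* rose by a log2 fold change of 1.66 ± 0.24 (SE, n = 3 per group), or 3.17-fold (95% confidence interval 2.19 to 4.60), with an adjusted p of 0.00426 (edgeR, Benjamini-Hochberg). With the GC content and length trend removed, the log2 fold change was 0.43 ± 0.31 and the adjusted p 0.353. Its controls then stood at 1.63, 0.921 and 0.717 CPM, further apart than before correction. The other group lay within that range. With a library left out, the corrected log2 fold change ran from 0.15 (without sh-control replicate 3) to 0.70 (without sh-control replicate 1). *NOTCH1* was called in none of those corrected fits. Before correction, the call was lost without sh-control replicate 2 (edgeR adjusted p = 0.0323), sh-control replicate 3 (0.0134), sh-*RREB1* replicate 1 (0.0195), replicate 2 (0.0148) or replicate 3 (0.0242). The uncorrected log2 fold change stayed between 1.61 and 1.74 over the 6 fits with a library left out.

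*NOTCH2* (ENSG00000134250, chr1:119911553-120100779, minus strand), a receptor required for nephron formation, was the most abundant of the receptors. Its level was 330, 338 and 345 CPM in sh-control, against 350, 405 and 352 CPM in the sh-*RREB1*-labelled libraries. Those labelled sh-*RREB1* all lay above the controls, but the gap between the groups was small beside the height of sh-*RREB1* replicate 2. The log2 fold change was 0.13 ± 0.10 (95% confidence interval -0.10 to 0.36) and the adjusted p 0.422 (edgeR), and with the trend removed they were 0.15 ± 0.08 and 0.206. *NOTCH2* has near-identical partial copies in the genome, which makes its level uncertain.

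*NOTCH3* (ENSG00000074181, chr19:15159038-15200995, minus strand), known as the receptor of vascular smooth muscle, was at 3.31, 5.15 and 4.64 CPM in sh-control, against 7.98, 9.75 and 6.66 CPM in the sh-*RREB1*-labelled libraries. No control reached the lowest of the other group, and sh-control replicate 1 was the lowest of all. Its log2 fold change was 0.90 ± 0.23 with an adjusted p of 0.0263 (edgeR), past 0.05 but short of a call. With the trend removed, the sign turned, to -0.27 ± 0.17 (adjusted p = 0.301).

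Of the ligands, none was called in the fit without correction. *JAG1* (ENSG00000101384, chr20:10637684-10673999, minus strand), the ligand altered in Alagille syndrome, was at 6.66, 6.40 and 7.36 CPM in sh-control, against 6.49, 6.46 and 5.79 CPM in the sh-*RREB1*-labelled libraries. The groups overlapped. This was a log2 fold change of -0.12 ± 0.16 (95% confidence interval -0.49 to 0.25, edgeR adjusted p = 0.657). *JAG1* was the gene with the most reads on its opposite strand relative to its own, 22, 27 and 25 in sh-control and 31, 52 and 22 in the sh-*RREB1*-labelled libraries, or 9.58% to 23.5% of the reads of both strands. With both strands counted together, its log2 fold change was 0.06 in place of -0.12.

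*JAG2* (ENSG00000184916, chr14:105140982-105168824, minus strand), the other Jagged ligand, was at 0.783, 1.29 and 1.43 CPM in sh-control, against 2.62, 2.14 and 1.90 CPM in the sh-*RREB1*-labelled libraries. There was no overlap, and sh-control replicate 1 was again the lowest. These levels rest on between 18 and 65 reads in a library. Its log2 fold change was 0.92 ± 0.27 with an adjusted p of 0.0462 (edgeR), and it turned to -0.37 ± 0.24 (adjusted p = 0.309) with the trend removed.

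*DLL1* (ENSG00000198719, chr6:170282206-170306565, minus strand) encodes a Delta-like ligand that activates Notch on neighbouring cells. Its level was 1.001, 1.91 and 1.53 CPM in sh-control, against 3.55, 3.17 and 1.59 CPM in the sh-*RREB1*-labelled libraries. The groups overlapped, because sh-*RREB1* replicate 3 lay within the control range while the other two lay above it. On the log2 scale *DLL1* differed by 0.93 ± 0.33 with an adjusted p of 0.0835 (edgeR), and 0.16 ± 0.28 with an adjusted p of 0.726 with the trend removed. The gene overlaps *FAM120B* on the opposite strand, to which 11877 reads were assigned over the 6 libraries, and a non-coding gene on its own strand to which 33 were assigned. Between 3 and 5 reads per library fell on the strand opposite *DLL1*.

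*DLL3* (ENSG00000090932, chr19:39498895-39508481, plus strand) encodes a divergent Delta-like protein that, unlike *DLL1*, is known to act mainly inside the cell and to inhibit signalling. Its level was 3.31, 7.36 and 5.58 CPM in sh-control, against 5.24, 6.65 and 6.42 CPM in the sh-*RREB1*-labelled libraries. The groups overlapped wholly, the controls being both the lowest and the highest. For *DLL3* the log2 fold change was 0.17 ± 0.28 (edgeR adjusted p = 0.728), and it was -0.12 without sh-control replicate 1. With the trend removed, *DLL3* was at 9.06, 9.59 and 6.14 CPM in sh-control, against 3.56, 3.64 and 4.50 CPM in the other group, and the groups no longer overlapped. In that fit *DLL3* was called lower, with a log2 fold change of -1.08 ± 0.19 and an adjusted p of 0.00204 (edgeR). That call held without sh-control replicate 1, sh-control replicate 3 or sh-*RREB1* replicate 3. It was lost without sh-control replicate 2 (log2 fold change -0.93, adjusted p = 0.0146), sh-*RREB1* replicate 1 (-1.02, 0.0128) or sh-*RREB1* replicate 2 (-1.04, 0.0111).

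Of the targets, *HES4* was higher and *HES1* and *HEY1* did not pass the test. *HES4* (ENSG00000188290, chr1:998962-1000172, minus strand), a HES repressor with no counterpart in the mouse, was at 0.174, 1.21 and 0.779 CPM in sh-control, against 5.76, 4.32 and 4.20 CPM in the sh-*RREB1*-labelled libraries. The groups did not overlap, and the controls differed more among themselves than the other group did relative to its level. The reads behind these levels numbered 4, 33 and 25 in sh-control and 143, 113 and 53 in the other group. *HES4* rose by a log2 fold change of 2.68 ± 0.45, or 6.43-fold (95% confidence interval 3.19 to 13.0), with an adjusted p of 0.00663 (edgeR). Corrected for the trend, its controls stood at 1.11, 2.16 and 1.07 CPM and the other group at 2.20, 1.68 and 2.15 CPM, which overlap. The log2 fold change in that fit was 0.46 ± 0.28 and the adjusted p 0.282. No other expressed gene reached the GC content of *HES4*, so its correction was read at the end of the fitted range. In the fit without correction the call was lost without sh-control replicate 2 (edgeR adjusted p = 0.0300), sh-control replicate 3 (0.0171), sh-*RREB1* replicate 1 (0.0258), replicate 2 (0.0208) or replicate 3 (0.0323). The log2 fold change lay between 2.24 and 3.20 over the 6 fits with a library left out.

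*HES1* (ENSG00000114315, chr3:194136148-194138732, plus strand), the target most often used to read Notch activity, was at 28.7, 29.8 and 27.3 CPM in sh-control, against 32.5, 23.0 and 23.6 CPM in the sh-*RREB1*-labelled libraries. The groups overlapped, with sh-*RREB1* replicate 1 above all controls and the other two below them. Its log2 fold change was -0.12 ± 0.17 (95% confidence interval -0.49 to 0.26, edgeR adjusted p = 0.674), and -0.25 ± 0.18 (adjusted p = 0.364) with the trend removed.

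*HEY1* (ENSG00000164683, chromosome 8, minus strand), a HEY repressor known from heart and vessel development, was at 220, 226 and 224 CPM in sh-control, against 199, 156 and 170 CPM in the sh-*RREB1*-labelled libraries. Every control lay above every other library, and the controls lay close together. Its log2 fold change was -0.36 ± 0.11 (95% confidence interval -0.61 to -0.10) with an adjusted p of 0.0591 (edgeR), and -0.24 ± 0.10 with an adjusted p of 0.113 with the trend removed. It was the only one of the 10 genes with all libraries labelled sh-*RREB1* below all controls.

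**Figure D1:**
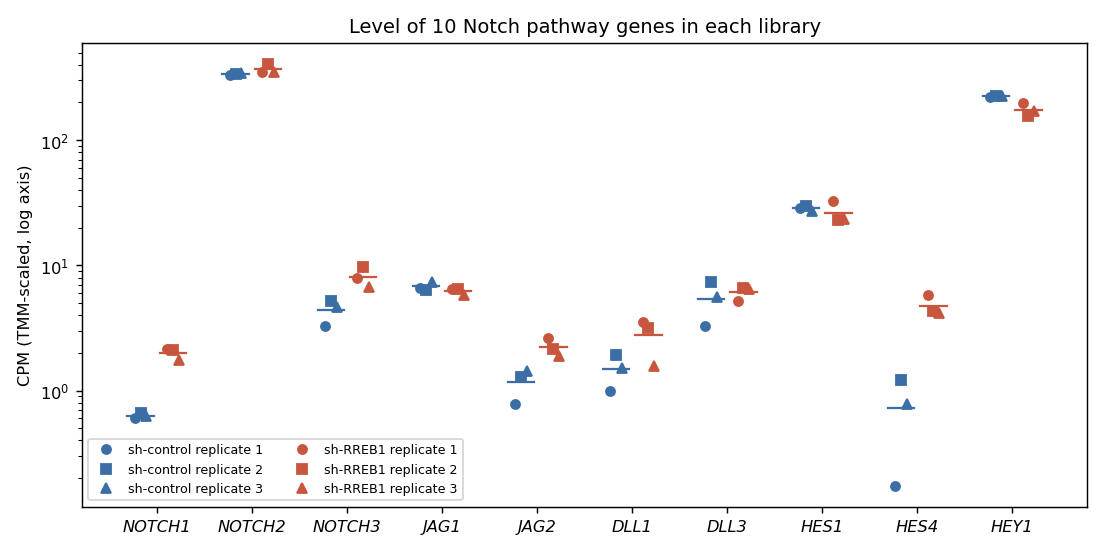
CPM of the 10 genes in each library on a log axis, with sh-control in blue and libraries labelled sh-*RREB1* in red. Symbols mark the replicates and short lines the group means. *HES4* and *NOTCH1* show the widest gaps between the groups, and *HEY1* is the gene whose red points all lie below the blue ones.

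Over the 10 genes, 2 were called, *NOTCH1* and *HES4*, both higher, where 3.41% of all genes tested were called. At an adjusted p below 0.05 with no minimum fold change, 4 passed, *NOTCH3* and *JAG2* being the others, where 19.6% of all genes did. The groups did not overlap for 6 of the 10, 5 higher and *HEY1* lower, where 41.1% of all genes did not overlap. DESeq2 called 2 of the 10, where it called 7.07% of all genes. With the GC content and length trend removed, edgeR called 1, *DLL3*, where 3.02% of all genes were called. The median log2 fold change of the 10 was 0.53, beside 0.01 over all genes tested, and with the trend removed it was -0.20, beside -0.03. Of the 6 uncorrected fits with a library left out, the one without sh-control replicate 1 called 2 of the 10 genes and the other five called 0. Over all genes, 794 calls became 9 without sh-control replicate 2, 383 without its replicate 3, and 25, 136 and 8 without replicate 1, 2 or 3 of the sh-*RREB1*-labelled group.

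**Figure D2:**
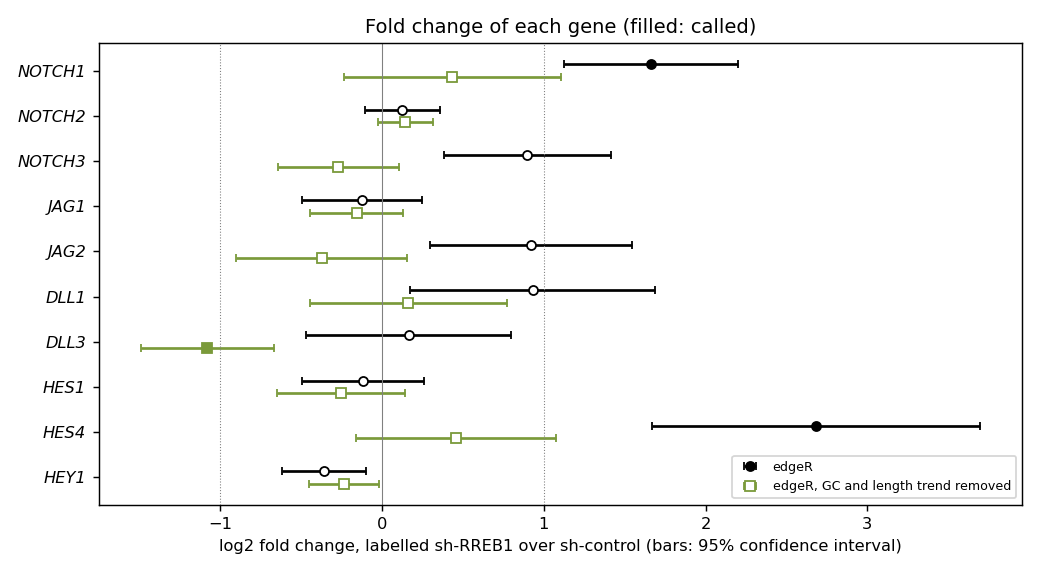
Log2 fold change of each gene, labelled sh-*RREB1* over sh-control, with 95% confidence intervals. Black points are the edgeR fit and green squares the fit with the GC content and length trend removed, and filled symbols are called. *NOTCH1* at 1.66 and *HES4* at 2.68 are filled in black only, and *DLL3* at -1.08 in green only.

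**Figure D3:**
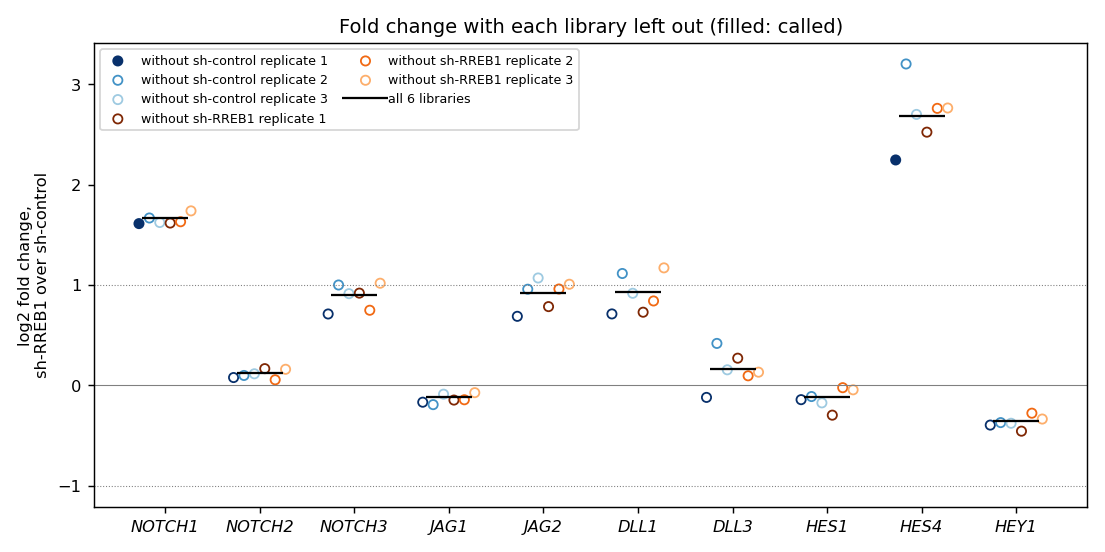
Log2 fold change of each gene with each of the 6 libraries left out in turn (circles, filled where called) and with all 6 (black lines). *NOTCH1* stays between 1.61 and 1.74 and *HES4* between 2.24 and 3.20, and only the fit without sh-control replicate 1 has filled circles.

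The 5 genes with the largest log2 fold changes all had exons rich in GC. GC content was 73.8% in *HES4*, the highest of the 14332 expressed genes (mean log2 CPM above 0), 64.2% in *JAG2*, 63.9% in *DLL3*, 63.2% in *NOTCH1*, 62.4% in *NOTCH3* and 59.6% in *DLL1*. In the remaining 4 genes it was 52.3% (*HES1*), 49.0% (*JAG1*), 46.6% (*NOTCH2*) and 45.2% (*HEY1*). Across expressed genes, the median log2 fold change ran from -0.23 in the lowest of 10 equal bins by GC content to 1.11 in the highest bin, 59.7% to 73.8%, which holds 5 of the 10 genes of interest. The trend on GC content and length differed between the groups by 2.49 on the log2 scale at the GC content and length of *HES4*, by 1.40 at those of *JAG2*, 1.30 at those of *NOTCH1* and *DLL3*, 1.20 at those of *NOTCH3* and 0.84 at those of *DLL1*. For *HES1*, *JAG1*, *NOTCH2* and *HEY1* it differed by 0.15, 0.04, -0.02 and -0.12. The value at *HES4* is the least certain, because *HES4* is itself the end point of the GC range and was part of the fit. Sh-control replicate 1 stood apart, with a trend of -2.52 at *HES4* where the other controls were at -0.81 and -0.41. Because the trend moves with the groups, a change of expression that follows GC content and a GC trend of the libraries cannot be told apart here.

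**Figure D4:**
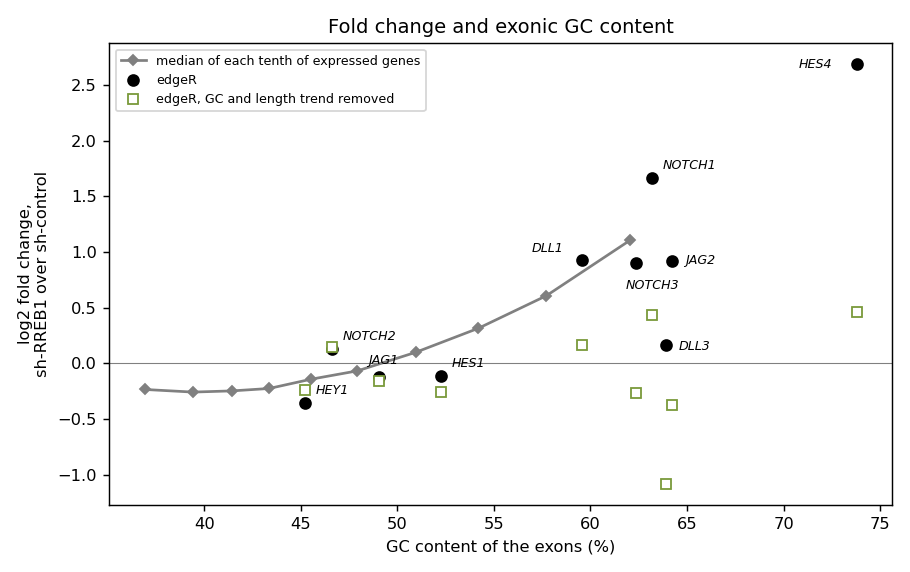
Log2 fold change against the GC content of the exons for the 10 genes (black circles), the same with the GC content and length trend removed (green squares), and the median of each of 10 equal bins of expressed genes by GC content (grey). *HES4* at 73.8% GC has the largest fold change, 2.68, and *DLL3* at 63.9% GC lies at 0.17, below the grey line.

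Per kilobase of exon, the levels were put in order. Length was taken over all annotated exons of a gene, and these levels were not corrected for GC content. Both limit comparison between genes. In sh-control, *HEY1* was first at 40.7 ± 0.572 CPM per kilobase (SD, n = 3), followed by *NOTCH2* at 20.2 ± 0.454 and *HES1* at 13.9 ± 0.610. These 3 genes stood well apart from the rest. *DLL3* came next at 2.07 ± 0.776 as the most abundant of the ligands, and *JAG1* followed at 0.732 ± 0.0530. *HES4* (0.646 ± 0.467), *NOTCH3* (0.464 ± 0.101) and *DLL1* (0.388 ± 0.120) came next, and from *JAG1* to *DLL1* each neighbour overlapped the next. *JAG2* (0.183 ± 0.0534) and *NOTCH1* (0.0504 ± 0.00220) were lowest and overlapped with no neighbour. In the libraries labelled sh-*RREB1* the first 3 places were the same, with *HEY1* at 31.8 ± 3.98, *NOTCH2* at 22.0 ± 1.89 and *HES1* at 12.8 ± 2.60 CPM per kilobase. *HES4* came next at 4.26 ± 0.777, above *DLL3* at 2.33 ± 0.290. *NOTCH3* (0.864 ± 0.165), *DLL1* (0.725 ± 0.273) and *JAG1* (0.672 ± 0.0425) followed, each overlapping the next, and *JAG2* (0.347 ± 0.0570) and *NOTCH1* (0.159 ± 0.0173) were again lowest.

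Within each class, the mix of transcripts was compared as a share of reads per kilobase. The classes held only the genes of interest, so a receptor outside them was not in the sum. *NOTCH1* made up 0.242%, 0.254% and 0.235% of the receptor transcripts in sh-control and 0.778%, 0.660% and 0.637% in the sh-*RREB1*-labelled libraries. There was no overlap (exact permutation test, two-sided, p = 0.1), which is the smallest p that 3 libraries against 3 can give. *NOTCH2* made up 97.5% ± 0.457 (SD, n = 3) and 95.6% ± 0.474 of the receptor transcripts, so that receptor RNA was nearly all *NOTCH2* in both groups. *JAG2* made up 14.6%, 22.6% and 22.1% of the Jagged transcripts in sh-control and 37.0%, 32.5% and 32.3% in the other group, again without overlap (exact permutation test, p = 0.1). *HES1* held 25.1% ± 0.823 of the 3 targets in sh-control and 26.1% ± 1.45 in the sh-*RREB1*-labelled libraries (exact permutation test, p = 0.5). The share of *HES4* was 1.16% ± 0.819 and 8.69% ± 0.473, and that of *HEY1* 73.7% ± 0.996 and 65.3% ± 1.86. *NOTCH1*, *JAG2* and *HES4* are richer in GC than the genes they were set against, and the shares were not corrected for it.

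**Figure D5:**
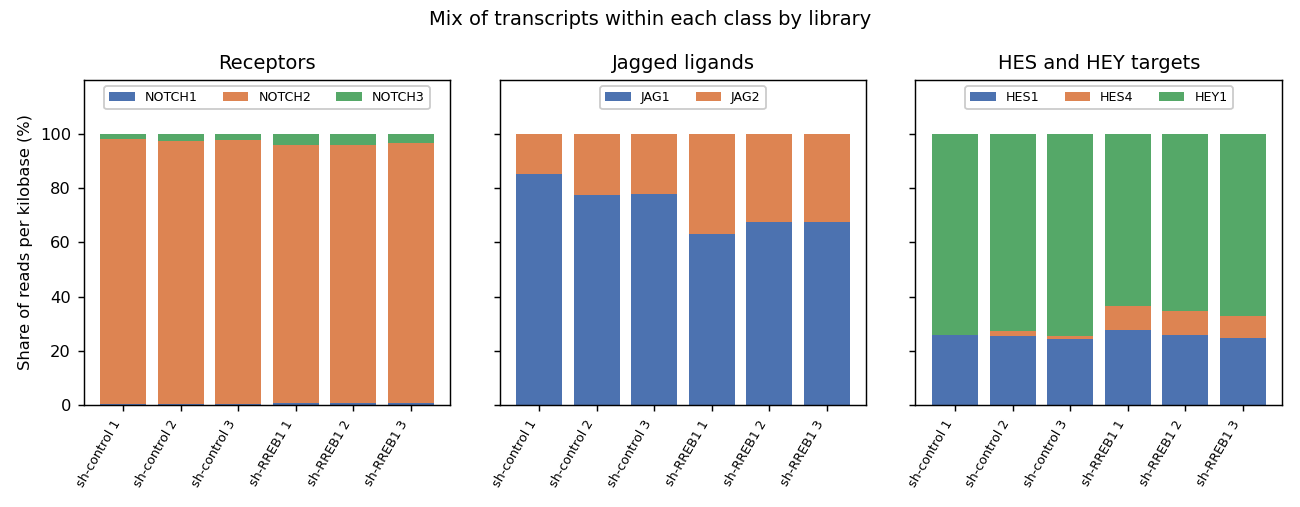
Share of each gene in the reads per kilobase of its class in each library, for the receptors, the Jagged ligands and the HES and HEY targets. *NOTCH2* fills over 95% of every receptor bar, *JAG2* lies at 14.6% to 22.6% in sh-control and at 32.3% to 37.0% in the sh-*RREB1*-labelled libraries, and *HEY1* is the largest share of the targets throughout.

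Of 57 other genes of the Notch pathway, 53 were tested, and 4 were called, all higher. Of all genes tested, 3.41% were called, 2.71% higher, with 631 of the calls higher and 163 lower. *DLK1* and *HES3* had no read in any library, and *DTX1* and *HELT* had 3 and 6 reads in all. *FURIN*, the convertase that cuts the receptor precursor, had a log2 fold change of 1.98 ± 0.37 (adjusted p = 0.00970). *NRARP*, a Notch target that limits signalling, had one of 1.45 ± 0.26 (0.00817) and *DTX3*, a Deltex family ubiquitin ligase, one of 1.31 ± 0.24 (0.00944, all edgeR with Benjamini-Hochberg adjustment). The exonic GC content of these genes was 62.2%, 59.2% and 57.4%. With the trend removed, none of the 4 was called, and the log2 fold changes of *FURIN*, *NRARP* and *DTX3* were 0.93 (adjusted p = 0.00152), 0.71 (0.122) and 0.70 (0.0120). In that fit 2 other genes were called, both lower, where 1.2% of all genes were called lower: *NEURL1B*, a ubiquitin ligase for ligands, at -1.68 ± 0.21 (0.000347) and *HES6*, a HES protein known to oppose *HES1*, at -1.23 ± 0.22 (0.00224). *NEURL1B* was at 4.26, 4.89 and 4.92 CPM in sh-control, against 2.34, 2.41 and 2.86 CPM in the other group, lower in every library also before correction (edgeR adjusted p = 0.0135). *HES6* turned sign, its log2 fold change before correction being 0.53 ± 0.28 (edgeR adjusted p = 0.211). The 4 calls became 0 without sh-control replicate 2 or any one library labelled sh-*RREB1*, 1 without sh-control replicate 3 and 7 without sh-control replicate 1.

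At an adjusted p below 0.05, 11 of the 53 were higher and 7 lower, where 10.8% of all genes were higher and 8.81% lower. With the trend removed 5 were higher and 8 lower, where 10.4% of all genes were higher and 11.7% lower. The median log2 fold change of the 53 was 0.15, beside 0.01 over all genes, and -0.13 with the trend removed, beside -0.03. The most abundant per kilobase in each role were *DLK2*, a non-canonical ligand (log2 fold change 1.57 ± 0.31, edgeR adjusted p = 0.0118), *POFUT1*, which fucosylates the receptors (0.46 ± 0.17, 0.0970), *APH1A*, a gamma-secretase subunit (0.37 ± 0.20, 0.227), and *MIB1*, a ubiquitin ligase for ligands (-0.05 ± 0.14, 0.833). *SNW1*, a coactivator, was the most abundant of the nuclear complex (-0.59 ± 0.12, 0.0128) and *HEY2* of the further targets (0.38 ± 0.20, 0.217). With the trend removed, *DLK2* was at 0.60 (edgeR adjusted p = 0.0350), *POFUT1* at 0.41 (0.0233) and *APH1A* at 0.09 (0.530). In that fit *MIB1* was at 0.16 (0.239), *SNW1* at -0.37 (0.0359) and *HEY2* at 0.49 (0.0664). Chosen after their values were seen, *RBPJ* differed by -0.34 ± 0.15 on the log2 scale (edgeR adjusted p = 0.153) and the Mastermind gene *MAML1* by 0.86 ± 0.13 (0.00452), past the p threshold but not the fold. With the trend removed, these were -0.13 (0.367) and 0.45 (0.0360). The other Mastermind genes did not pass, *MAML2* at 0.15 ± 0.22 (edgeR adjusted p = 0.678) and *MAML3* at -0.13 ± 0.19 (0.691), or 0.28 (0.288) and -0.38 (0.106) with the trend removed.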

How the data were processed

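The authors aligned reads of stranded total RNA libraries to hg38 using STAR (2.4.2a) and Gencode version 25 annotation, and deposited raw read counts per gene for 6 libraries, without normalization. Except in the alternative with both strands together, only sense-strand counts entered the tests. Lines for reads on no gene were left out. Of reads aligned at one position, 34.3%, 25.3% and 26.4% fell on no gene of that strand in sh-control. In the sh-*RREB1*-labelled libraries it was 34.2%, 23.5% and 40.0%, and the part of this in the values was not tested. No sequence was aligned again.

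Of 58037 identifiers, 45 pseudoautosomal copies were dropped, 56948 had a symbol and 55767 symbols remained after keeping the identifier with the most reads. Genes with fewer than 10 reads in all were left out. Differences were tested with edgeR 4.0.16 (quasi-likelihood, TMM, condition as the only term, Benjamini-Hochberg adjustment) in R 4.3.3, and a call needed an adjusted p under 0.01 together with a log2 fold change beyond 1 in either direction, as in the study, which used DESeq2. Shares were tested by exact permutation (scipy 1.17.1). Gencode version 44 gave the exonic length and GC content, and genes with a mean log2 CPM above 0 counted as expressed. The trend of each library on them (splines with 5 degrees of freedom) was removed as an offset in an alternative fit. Such a fit can also remove a true change that follows GC content.

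The closest replicates, sh-control 2 and 3, differed by 4.74 in chi-square per degree of freedom, above sampling noise. All libraries were counted as separate, although such a value cannot show that they came from separate infections or cultures. The other alternatives were DESeq2 1.42.0, other scalings and filters, both strands together, every identifier kept, the replicate number as a block, an adjusted p below 0.05, and each library left out. Named were *RREB1*, the 10 genes and, of the pathway list, genes called with or without the correction, the most abundant per kilobase in each role and those below the filter, besides *RBPJ* and the Mastermind genes, added after their values were seen. The values of 1 gene that this rule names are not reported here. The 10 genes and all lists were chosen with earlier results of these data known. Precision was limited by depth (12257054 to 33044061 reads on genes) and by 3 libraries per group.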

Additional observations from a re-analysis of the deposited data

Results flagged for a closer look

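Reads on the strand opposite *JAG1* entered only the alternative with both strands together. They averaged 1.70 per 1000000 reads on genes under the sh-*RREB1* label and 0.883 in sh-control. They were few, at most 52 in a library. Reads opposite *HES4* averaged 0.135 per 1000000 under that label, with 2, 2 and 3 reads, and there were 0 in each control. The source of either was not tested. Over all genes, sh-*RREB1* replicate 3 had 3923750 reads on the opposite strand, beside 12257054 on the strand of the gene. No other library had more than 1718516 on the opposite strand, and each had more reads on genes. The part of this in the values of *JAG1* and *HES4* was not tested. Groups of 3 libraries were not tested for a library far from the others.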

How the results depend on the processing

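Of the 10 genes, 2 were called under DESeq2, both other scalings, both other filters, both strands together and every identifier kept. The count was 1 with the GC content and length correction, 4 at an adjusted p below 0.05, and 0 to 2 with a library left out. With the replicate block it was 2, and 1 with the block and the correction. Whether the replicate numbers pair the samples was not settled. Deviations of equally numbered libraries from their group means correlated at 0.50, 0.43 and -0.28, and sh-*RREB1* replicate 3 correlated best with sh-control replicate 1. Deviations from a mean of 3 libraries depend on one another, so these values cannot decide it. For the pathway list, 4 calls became 8 with DESeq2, 8 with a minimum of 1 read, 2 with the correction, 7 with the replicate block, 2 with the block and the correction, 18 at an adjusted p below 0.05, and 0 to 7 with a library left out. Over all genes, 794 became 1648 with DESeq2, 1801 with a minimum of 1 read, 1684 with the replicate block, 4567 at an adjusted p below 0.05, and 8 to 1117 with a library left out. Genes higher and lower numbered 631 and 163, 742 and 279 with upper-quartile scaling and 424 and 280 with the correction. Log2 fold changes turned sign with the correction, and with the block and the correction, for *NOTCH3* (-0.27, -0.30), *JAG2* (-0.37, -0.45) and *DLL3* (-1.08, -1.08), and for *JAG1* with both strands (0.056). With a library left out, with or without the correction, they ran from -0.46 to 1.02 for *NOTCH3*, -0.58 to 1.07 for *JAG2*, -0.14 to 1.17 for *DLL1* and -1.29 to 0.42 for *DLL3*. The correction with a library left out was added after seeing the data. Fits with a library left out have fewer samples, and the cause of the other differences was not tested. *NOTCH1*, *JAG2* and *HES4* rested on few reads, which limits their precision.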
